A study of Mus musculus with 6 samples.

Results

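Macrophages make cytokine mRNAs in bursts, and a small set of RNA-binding proteins and nucleases decides how long those mRNAs last. The expression of 10 genes of this set was followed here in mouse bone-marrow-derived macrophages (BMDMs): Zfp36, Zfp36l1, Zfp36l2, Zc3h12a, Zc3h12c, Rc3h1, Rc3h2, Khsrp, Elavl1 and Arid5a. They are a set named by function, drawn up with earlier results of these data known, and all 10 were found by symbol among the 54532 genes listed in the expression table. All 10 also passed the filter on low values, which left 12755 genes for testing.

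Most proteins of the set shorten the life of mRNAs. Tristetraprolin (TTP, encoded by Zfp36) and its relatives from Zfp36l1 and Zfp36l2 are zinc finger proteins that bind AU-rich elements in 3′ untranslated regions (3′ UTRs) and recruit the deadenylase complex that removes the poly(A) tail. Regnase-1 (Zc3h12a) and Regnase-3 (Zc3h12c) are endonucleases that cut mRNAs at stem-loops, and the Roquin proteins (Rc3h1 and Rc3h2) bind related stem-loops. KSRP (Khsrp) also promotes the decay of AU-rich mRNAs. HuR (Elavl1) binds AU-rich elements and Arid5a binds stem-loops such as that of Il6, and both are known for protecting mRNAs from decay.

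The BMDMs came from wild-type C57BL/6 mice, and their bone marrow had been cultured for 6 days in medium conditioned by L929 cells, a fibroblast line that secretes the macrophage growth factor M-CSF. One group was left untreated (Untr), another received lipopolysaccharide (LPS), the bacterial cell wall component sensed by TLR4, at 100 ng/ml for 2 h, and the last received 5 mM metformin, a biguanide drug given in diabetes, for 6 h before the same LPS treatment (Met + LPS). No sequenced group received metformin without LPS, so metformin is compared only in the presence of LPS. Poly(A) RNA was sequenced in 2 libraries per group, named A and B, from cells that were seeded in duplicate. Nothing states that the duplicates came from separate mice, and the p-values therefore measure the spread between duplicate cultures.

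Each library held between 25457016 and 30762755 reads on genes, as recovered from the table. The macrophage identity of the cells was checked with 9 marker genes, all of which reached 1 TPM, a read count scaled by gene length and then to the same sum in every library, and whose summed level was 44759 to 46739 TPM in Untr, 37424 to 37915 TPM in LPS and 30890 to 30960 TPM in Met + LPS. Of 7 neutrophil markers 5 reached 1 TPM, with Ly6g and Camp below it, and their sum was 29.9 to 32.6 TPM in Untr, 26.5 to 28.0 TPM in LPS and 43.4 to 45.5 TPM in Met + LPS. At least 1 TPM was reached by 1 of 5 T cell markers with Cd3g at 0, by 1 of 5 B cell markers, by 2 of 5 dendritic cell markers, by 1 of 6 fibroblast markers, by 0 of 4 NK cell markers and by 0 of 5 erythroid markers, 4 of which were at 0. The part of other cells in the changes given here was not tested, and in bulk RNA fewer cells of a type and less RNA per cell cannot be told apart.

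Several of these regulators are themselves encoded by mRNAs that hold an AU-rich motif in the 3′ UTR. The TTP-binding nonamer TTATTTATT was searched on the sense strand of the 3′ UTR of the transcript with the longest coding sequence of each gene (GENCODE vM21, GRCm38). It was present in 6 of the 10 genes, against 6.90% of 20690 genes with a 3′ UTR. Longer UTRs hold more matches by their length alone, and among genes whose 3′ UTR length was within 20% of the gene's own the share was 4.38% for Zfp36 and 26.5% for Rc3h1, the lowest and highest of the 10. These sites are shown because they are the element that the Zfp36 family reads. They lie in the family's own mRNAs and in those of Rc3h1, Rc3h2 and Elavl1. The nonamer is in capitals, and the sites are written as DNA from 5′ to 3′.
Zfp36, chr7:28376951-28376979, minus strand: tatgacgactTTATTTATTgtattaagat
Zfp36l1, chr12:80108167-80108195, minus strand: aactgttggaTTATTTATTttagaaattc
Zfp36l2, chr17:84184914-84184942, minus strand: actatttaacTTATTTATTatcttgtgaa
Rc3h1, chr1:160970043-160970071, plus strand: actttactcaTTATTTATTgagatgagga
Rc3h2, chr2:37373287-37373315, minus strand: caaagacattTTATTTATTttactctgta
Elavl1, chr8:4285788-4285816, minus strand: gtcatgaaaaTTATTTATTtatttattta

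Elavl1 was the one gene of the 10 with more than a single match: it had 8 matches, most of them overlapping in one AU-rich run of which the first match is shown, and 2 or more matches occurred in 1.62% of genes. Zc3h12a, Zc3h12c, Khsrp and Arid5a had no nonamer. The shorter pentamer ATTTA, found in 61.5% of genes, was present 3 times in Zc3h12a, 12 times in Zc3h12c and once in Khsrp, and Arid5a had none in its 868 bases of 3′ UTR. A match is a description of the letters, and neither binding nor mRNA half-life was measured in these samples.

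Promoter windows from RefSeq (GRCm38.p6), reaching from 250 bases before to 50 bases after the transcription start, were found for 9 of the 10 genes, in 10 windows because Zc3h12c has a pair of starts. Zfp36l2 had no window, so its promoter was not searched. Both strands were searched for the κB motif, the AP-1 motif TGANTCA, the cAMP response element TGACGTCA and the CArG box of serum response factor. The window of Zfp36, an immediate early gene, held a CArG box with its first base at position -58, a motif found in 1.64% of 32544 windows. It is printed here with the CArG box in capitals, as the only CArG match in the 10 windows.
Zfp36, chr7:28379179-28379478, minus strand: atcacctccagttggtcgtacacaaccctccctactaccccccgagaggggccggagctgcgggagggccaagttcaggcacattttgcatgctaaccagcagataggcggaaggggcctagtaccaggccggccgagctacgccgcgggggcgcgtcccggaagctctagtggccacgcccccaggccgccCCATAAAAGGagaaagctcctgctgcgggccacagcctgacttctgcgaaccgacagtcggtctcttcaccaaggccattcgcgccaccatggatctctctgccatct

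A κB match lay at position -236 of one of the Zc3h12c windows (8.49% of all windows held one), shown next with the match in capitals because Zc3h12c is the gene that was raised in both comparisons past their cut-offs.
Zc3h12c, chr9:52168357-52168656, minus strand: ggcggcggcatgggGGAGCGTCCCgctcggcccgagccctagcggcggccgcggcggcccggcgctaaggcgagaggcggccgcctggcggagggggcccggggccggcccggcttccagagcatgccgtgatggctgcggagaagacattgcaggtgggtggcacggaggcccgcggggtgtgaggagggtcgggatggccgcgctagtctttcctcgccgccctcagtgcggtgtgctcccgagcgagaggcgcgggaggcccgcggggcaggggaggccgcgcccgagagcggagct

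The AP-1 letters were present at position -129 of Zfp36l1 and at position -133 of Rc3h1 (7.79% of windows). The cAMP response element, present in 1.80% of windows, was in none of the 10 windows searched. Zc3h12a, Rc3h2, Khsrp, Elavl1 and Arid5a held none of these motifs in their windows. The windows do not reach enhancers or distal promoter elements, and whether any match plays a part in the changes given here was not tested.

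To learn how LPS alone changed the set, LPS was compared with Untr. Changes are given as log2 fold changes of TPM + 1 from limma, and the cut-offs of the study were applied, which are a log2 fold change of 2 or more in size and an adjusted p under 0.01. Past both cut-offs were 6 of the 10 genes, 4 of them higher after LPS (Zfp36, Zc3h12a, Zc3h12c and Arid5a) and 2 lower (Zfp36l1 and Zfp36l2), whereas 6.08% of all tested genes passed both. With 0.1 in place of 1 added to TPM, that share of all genes was 11.9%. Because the set was drawn up with earlier results of these data known, such contrasts, here and below, are a description and not a test of the set. On the adjusted p alone 9 of the 10 genes passed, against 76.3% of all tested genes, so that this share is not particular to the set. By direction, 6 were higher and 3 were lower, where the corresponding shares of all genes were 16.2% and 60.1%.

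Those shares depend on the scale. The median log2 fold change of all tested genes was -0.48 between LPS and Untr on the TPM scale, and it became -0.01 when the libraries were rescaled by the median ratio over genes. The same rescaling turned the shares of higher and lower genes into 30.6% and 27.6%. The median of the 10 regulators was 0.59, and values relative to the median of all genes are given where they matter.

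**Figure D1:**
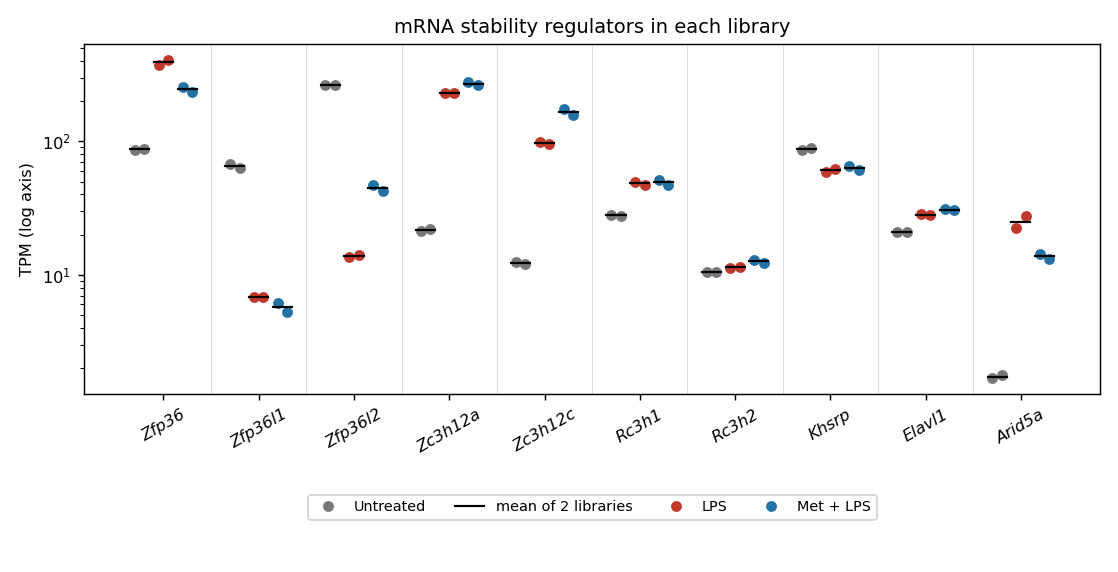
Level of each of the 10 regulators in each library, in TPM on a log axis, with 1 point per library, colours for the 3 groups and a line at the mean of the 2 libraries of a group. Zfp36, Zc3h12a, Zc3h12c and Arid5a were higher after LPS, Zfp36l1 and Zfp36l2 were lower, and the duplicates lay close to each other.

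The Zfp36 family changed in opposite directions. Zfp36 was at 86.2 and 87.9 TPM in the Untr libraries and at 376 and 407 TPM after LPS, a 4.50-fold rise (log2 fold change 2.15 ± 0.06 SE, limma with Benjamini-Hochberg adjusted p = 2.4e-07). Zfp36l2, the most abundant of the 10 in untreated cells, was at 264 and 262 TPM without LPS and at 13.7 and 14.2 TPM with it. The latter is an 18.9-fold lower mean, with a log2 fold change of -4.14 ± 0.06 (SE, limma, adjusted p = 1.28e-08). Of all tested genes, 0.0941% had a fold change as low or lower.

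Zfp36l1 also fell, from 67.6 and 63.4 TPM to 6.85 and 6.87 TPM, a 9.54-fold lower mean (log2 fold change -3.08 ± 0.08 SE, limma, adjusted p = 1.85e-07). Its LPS libraries rested on 156 and 150 reads. The groups did not overlap for any of these 3 genes, nor for any other of the 10, including Rc3h2, which gave no call. The share of all genes without overlap was not counted, so this separation is not particular to the 3 genes. The level of Zfp36l1 is less certain than that of the others: 1672 of its 2990 exonic bases lie opposite the lincRNA Gm26669, and 40.01% of its 31-base words occur in no other gene, with a processed copy, Zfp36l1-ps, among those that share them. Gm26669 was at 0 to 0.386 TPM and Zfp36l1-ps at 0 to 0.155 TPM, and whether reads were counted by strand is not given in the sources used here.

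On the TPM scale, these opposite changes left the sum over the family nearly where it was. The 3 genes together came to 417 and 414 TPM in Untr and to 396 and 428 TPM in LPS, so that the groups overlapped. Zfp36 made up 21.0% ± 0.4 (SD, n = 2) of that sum in Untr and 94.9% ± 0.2 in LPS. The share of Zfp36l2 went from 63.3% ± 0.2 to 3.38% ± 0.10, and that of Zfp36l1 from 15.8% ± 0.6 to 1.67% ± 0.09. The sum is a sum of mRNA levels per length and says nothing of protein. A sum in TPM is also tied to the scale described above, whereas the shares within a library are not. The median-ratio rescaling divides both Untr libraries by 1.29 and the LPS libraries by 0.898 and 0.892. On that scale the sum is higher in LPS than in Untr, so the near equality does not hold there.

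**Figure D2:**
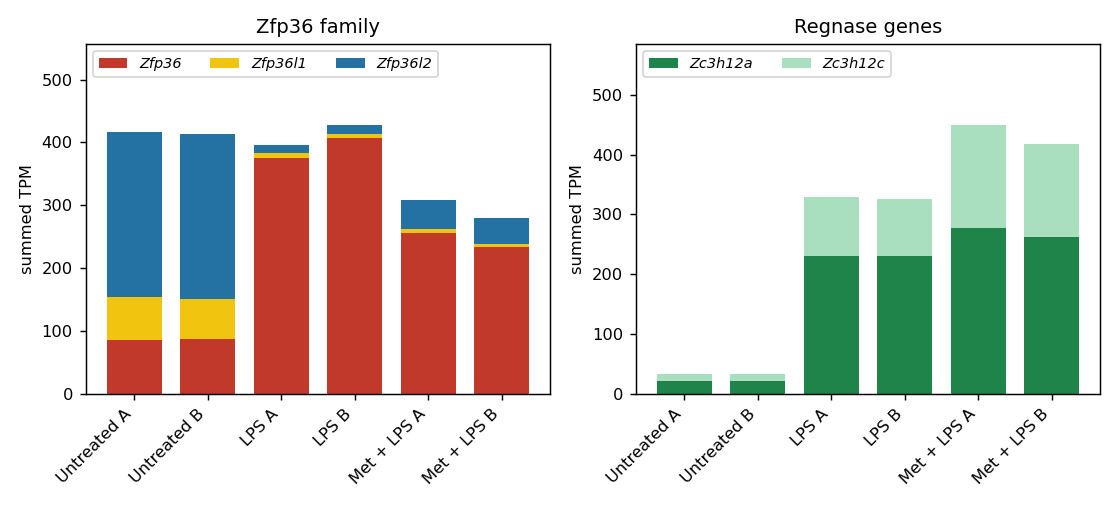
Summed TPM per library of the Zfp36 family (left) and of the Regnase genes Zc3h12a and Zc3h12c (right), stacked by gene, with both axes starting at 0. The family sum was 415 TPM in Untr and 412 TPM in LPS with a different leading gene, and 295 TPM in Met + LPS. The closeness of Untr and LPS rests on the TPM scale and is lost after median-ratio rescaling. The Regnase sum was 33.9, 327 and 434 TPM in Untr, LPS and Met + LPS.

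Both Regnase genes rose with LPS. Zc3h12a was at 21.3 and 22.0 TPM in Untr and at 230.4 and 231 TPM in LPS, a 10.7-fold rise (log2 fold change 3.35 ± 0.04 SE, limma, adjusted p = 8.4e-09). Zc3h12c was at 12.6 and 12.0 TPM in Untr and at 98.2 and 94.7 TPM in LPS, a 7.86-fold rise (log2 fold change 2.88 ± 0.06 SE, limma, adjusted p = 6.91e-08). Zc3h12a made up 63.8% ± 1.3 (SD, n = 2) of the sum of both in Untr and 70.5% ± 0.6 in LPS, and its share was higher in either LPS library than in either Untr library.

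Arid5a, whose protein protects Il6 mRNA from Regnase-1, had the lowest level of the 10 in Untr and the largest fold rise of mean TPM after LPS. It was at 1.68 and 1.77 TPM in Untr, from 159 to 160 reads, and at 22.5 and 27.5 TPM in LPS, which is 14.5-fold higher. The log2 fold change of TPM + 1 was 3.25 ± 0.10 (SE, limma, adjusted p = 4.91e-07). This scale understates the change of a gene with so low a starting level, and with a pseudocount of 0.1 in place of 1 the log2 fold change was 3.78. The ratio of Zc3h12a to Arid5a in TPM was 12.7 and 12.5 in the Untr libraries and 10.2 and 8.40 in the LPS libraries.

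The Roquin pair moved less. Rc3h1 was at 28.1 and 27.6 TPM in Untr and at 49.8 and 47.0 TPM in LPS, a log2 fold change of 0.78 ± 0.06 (SE, limma, adjusted p = 1.86e-05) that is under the fold cut-off. Rc3h2 was at 10.5 and 10.4 TPM in Untr and at 11.2 and 11.5 TPM in LPS. Its log2 fold change was 0.11 with a 95% interval of -0.03 to 0.24 (limma, adjusted p = 0.121), the one gene of the 10 that did not pass on the adjusted p. Against the median of all genes Rc3h2 was 0.59 higher, and after the median-ratio rescaling it passed at 0.59 (limma, adjusted p = 1.3e-04, range over all alternatives 1.3e-04 to 0.280).

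Khsrp and Elavl1 were also under the fold cut-off. Khsrp was at 85.9 and 88.7 TPM in Untr and at 59.3 and 62.2 TPM in LPS, with a log2 fold change of -0.52 ± 0.05 (SE, limma, adjusted p = 6.44e-05). Relative to the median of all genes Khsrp stood at -0.04, and after rescaling its log2 fold change was 0.00 (limma, adjusted p = 0.951, range over all alternatives 6.49e-09 to 0.951). Elavl1 rose from 21.0 and 21.1 TPM to 28.5 and 27.9 TPM, a log2 fold change of 0.40 ± 0.04 (SE, limma, adjusted p = 1.04e-04), or 0.89 above the median gene. The ratio of Zfp36 to Elavl1, a decay factor over a protecting factor, was 4.10 and 4.16 in Untr and 13.2 and 14.6 in LPS.

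The order of the genes by TPM differed between the groups. In Untr, Zfp36l2 led, followed by Zfp36 and Khsrp, whose libraries overlapped, and then Zfp36l1, Rc3h1, Zc3h12a, Elavl1, Zc3h12c, Rc3h2 and Arid5a. In LPS, Zfp36 led, followed by Zc3h12a, Zc3h12c, Khsrp, Rc3h1, Elavl1, Arid5a, Zfp36l2, Rc3h2 and Zfp36l1. In Met + LPS, Zc3h12a led, followed by Zfp36, Zc3h12c, Khsrp, Rc3h1, Zfp36l2, Elavl1, Arid5a, Rc3h2 and Zfp36l1. Except for Zfp36 and Khsrp in Untr, neighbours in these orders did not overlap between libraries, although Zc3h12a and Elavl1 in Untr, Elavl1 and Arid5a in LPS, and both Rc3h1 with Zfp36l2 and Arid5a with Rc3h2 in Met + LPS came within 1 TPM of each other at their closest.

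Levels of different genes depend on the length they were divided by. The union of all annotated exons is 4.18 times as long as the main coding transcript for Arid5a, 2.23 times for Rc3h2 and 1.80 times for Elavl1, and at most 1.24 times for the other 7. Divided by the coding transcript instead, Arid5a would be at 7.20 TPM in Untr and 105 TPM in LPS, which keeps it lowest in Untr and places it next to Zc3h12c in LPS. In Met + LPS, Zfp36 would then lead at 304 TPM, ahead of Zc3h12a at 282 TPM. Arid5a at 57.7 TPM would stand above Elavl1 at 55.7 TPM, Rc3h1 at 50.6 TPM and Zfp36l2 at 44.5 TPM. The orders given above, with their leading genes, therefore hold for the deposited TPM only. The length cancels in a ratio of TPM of one gene between groups, but not in a fold change of TPM + 1, which grows with the level of a low gene such as Arid5a. Nor does it cancel in a ratio or share between genes, or in a sum over genes. The sizes of the Zc3h12a to Arid5a and Zfp36 to Elavl1 ratios therefore rest on the lengths used, whereas their relative changes between groups do not.

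To learn what metformin pretreatment changed in the LPS response, Met + LPS was compared with LPS. Zfp36l2 and Zc3h12c were higher and Arid5a was lower past the cut-offs that the study set for this comparison, which are a log2 fold change of 0.7 or more in size together with an adjusted p under 0.01. These are 3 of the 10 genes, against 8.28% of all tested genes. On the adjusted p alone 5 of the 10 passed, 3 higher with Zc3h12a added and 2 lower with Zfp36 added, against 32.6% of all genes (14.5% higher and 18.0% lower). The median of the 10 was 0.09 and that of all genes was -0.03, and rescaling changed the latter to -0.02, so the scale mattered little here. This comparison and that of LPS with Untr share the LPS libraries, and their values are given side by side and not correlated.

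**Figure D3:**
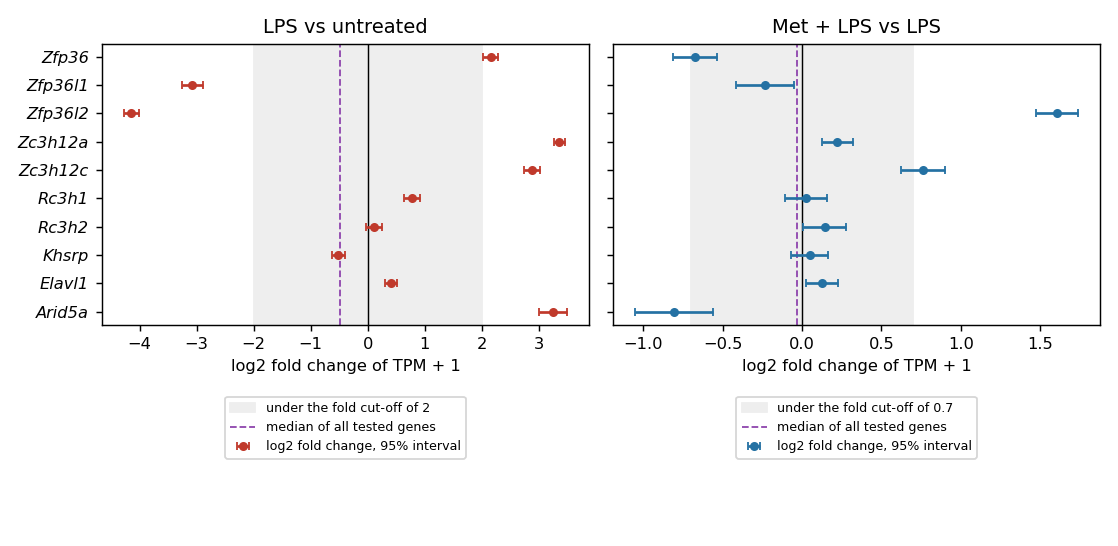
Log2 fold change of TPM + 1 of the 10 regulators with its 95% interval from limma, for LPS against Untr (left) and Met + LPS against LPS (right, on a narrower axis). Grey marks values under the fold cut-off and the dashed line marks the median of all tested genes, -0.48 on the left and -0.03 on the right. Zfp36l2 had the lowest value on the left and the highest on the right.

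Zfp36l2, the gene that LPS lowered most, was the gene of the set most raised by metformin pretreatment. It was at 46.9 and 42.2 TPM in Met + LPS against 13.7 and 14.2 TPM in LPS, 3.20-fold higher (log2 fold change 1.61 ± 0.06 SE, limma, adjusted p = 9.84e-06). This places it above 99.4% of all tested genes. It still stood far below the untreated level of 264 and 262 TPM, at 16.9% of the Untr mean, and 61.2% of the log2 change seen with LPS alone was present in Met + LPS.

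Its paralogs did not follow. Zfp36l1 was at 6.15 and 5.25 TPM in Met + LPS against 6.85 and 6.87 TPM in LPS, from 139 reads in either Met + LPS library, and its log2 fold change of -0.23 (95% interval -0.42 to -0.05) did not pass (limma, adjusted p = 0.0445). Zfp36 was lower, at 256 and 233 TPM against 376 and 407 TPM, a log2 fold change of -0.68 ± 0.06 (SE, limma, adjusted p = 1.95e-04) that fell just short of the fold cut-off. Left without the LPS A library it was -0.74, and without the Met + LPS A library it was also -0.74, past the cut-off in both cases, whereas it was -0.62 without LPS B and -0.61 without Met + LPS B.

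The family sum was lower in Met + LPS, at 309 and 281 TPM, than in the LPS libraries at 396 and 428 TPM. Zfp36 made up 83.0% ± 0.2 (SD, n = 2) of it instead of 94.9%, and Zfp36l2 made up 15.1% ± 0.1 instead of 3.38%. The sums and shares are given as a description, with no test.

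Zc3h12c rose further with metformin pretreatment, to 173 and 156 TPM from 98.2 and 94.7 TPM (log2 fold change 0.76 ± 0.06 SE, limma, adjusted p = 1.22e-04). It fell short of the fold cut-off at 0.69 without the Met + LPS A library. Zc3h12a was at 277 and 262 TPM against 230.4 and 231 TPM, a log2 fold change of 0.22 ± 0.04 (SE, limma, adjusted p = 0.00443). The groups did not overlap, but the call is weak, since it was lost in 8 of 14 alternatives (limma, adjusted p between 8.36e-05 and 0.0254 over all of them). Among those 8 were the fits without either Untr library, without either LPS library and without Met + LPS A.

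Summed, the Regnase genes were at 450 and 418 TPM in Met + LPS against 329 and 326 TPM in LPS. Zc3h12a made up 62.1% ± 0.8 (SD, n = 2) of the sum, as against 70.5% in LPS and 63.8% in Untr. The share was 61.5% and 62.6% in the Met + LPS libraries, below both LPS libraries at 70.1% and 70.9%.

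Arid5a went the other way from the Regnase genes. It was at 14.4 and 13.2 TPM in Met + LPS against 22.5 and 27.5 TPM in LPS, 1.81-fold lower (log2 fold change -0.81 ± 0.10 SE, limma, adjusted p = 9.9e-04). Relative to their mean, the LPS libraries differed from each other by more for this gene than for the others of the set. The log2 fold change was -0.67 and so under the cut-off without LPS B, -0.95 without LPS A, and -0.75 without Met + LPS B, where it missed the adjusted p (limma, adjusted p = 0.0105, range over all alternatives 4.65e-09 to 0.0105). The ratio of Zc3h12a to Arid5a was 19.2 and 19.8 in Met + LPS against a mean of 9.31 in LPS and 12.6 in Untr. No Met + LPS library overlapped either group in this ratio. It combines the lower Arid5a with the rise of Zc3h12a, which is a weak call, and its size rests on the gene lengths used.

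The other genes gave no call. Rc3h1 was at 51.3 and 47.2 TPM in Met + LPS, overlapping LPS, with a log2 fold change of 0.02 and a 95% interval of -0.11 to 0.16 (limma, adjusted p = 0.751). Rc3h2 was at 13.0 and 12.3 TPM, with a log2 fold change of 0.14 and an interval of 0.01 to 0.28 (limma, adjusted p = 0.0816). Khsrp was at 64.9 and 60.7 TPM, with a log2 fold change of 0.05 and an interval of -0.07 to 0.16 (limma, adjusted p = 0.457). Elavl1 was at 30.96 and 30.8 TPM, with a log2 fold change of 0.13 and an interval of 0.03 to 0.22 (limma, adjusted p = 0.0455). None of these intervals reached the cut-off of 0.7.

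Set against untreated cells, Met + LPS had 5 of the 10 genes past the cut-offs used for LPS against Untr, compared with 5.35% of all tested genes. They were Zc3h12a (log2 fold change 3.58), Zc3h12c (3.64) and Arid5a (2.44), which were higher, and Zfp36l1 (-3.31) and Zfp36l2 (-2.54), which were lower. Zfp36 was at 1.48 and so under the fold cut-off of 2, which it reached in LPS alone, and after median-ratio rescaling it was at 2.01 and past it. All 10 passed on the adjusted p, against 75.1% of all genes, with 7 higher and 3 lower (16.3% and 58.8% of all genes). After rescaling 9 passed, against 63.1% of all genes, since Khsrp went from -0.47 to 0.06 and was not called (limma, adjusted p = 0.264). On the TPM scale Rc3h2, at a log2 fold change of 0.25, was the weakest of the 10 (limma, adjusted p = 0.00552). That call for Rc3h2 was lost in each of the 6 fits that left out a library and in the fit of the compared groups only (limma, adjusted p between 1.88e-05 and 0.0361 over all alternatives).

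The nearest relatives of these genes were mostly below the filter on low values. Of 6 paralogs outside the set (Zfp36l3, Zc3h12b, Zc3h12d, Elavl2, Elavl3 and Elavl4), Zc3h12d, which encodes Regnase-4, was the one that passed it. It fell from 63.4 ± 1.1 TPM (SD, n = 2) in Untr to 8.14 ± 0.52 TPM in LPS (log2 fold change -2.82 ± 0.06 SE, limma, adjusted p = 1.29e-07) and was at 8.16 ± 0.49 TPM in Met + LPS. Zc3h12d was thus lower in LPS where Zc3h12a and Zc3h12c were higher, as Zfp36l1 and Zfp36l2 were lower where Zfp36 was higher.

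Other RNA-binding proteins that act on mRNA stability include AUF1 (Hnrnpd) and the YTH proteins. Of 24 listed, 23 were tested, and with LPS 9 were higher and 8 lower on the adjusted p from limma, where the shares of all tested genes were 16.2% and 60.1%, with none past the fold cut-off of 2 and a median of -0.03 against -0.48 for all genes. After rescaling these counts were 16 higher and 2 lower, against 30.6% and 27.6% of all tested genes. With metformin pretreatment 7 were higher and 2 lower, against 14.5% and 18.0% of all genes, none past the fold cut-off of 0.7, with a median of 0.13.

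Enzymes known to act on the regulators include the p38 and MK2 kinases, which phosphorylate TTP and hold it inactive, the phosphatase Dusp1, which switches p38 off, and the protease Malt1, which cleaves Regnase-1 and the Roquins. All 23 listed were tested. With LPS 13 were higher and 6 lower on the adjusted p (16.2% and 60.1% of all tested genes), and 3 of them passed both cut-offs (6.08% of all tested genes): Dusp1 rose from 19.5 ± 0.8 to 462 ± 27 TPM (SD, n = 2), Malt1 from 18.8 ± 1.2 to 214 ± 1 TPM and Mapkapk2, which encodes MK2, from 308 ± 9 to 1706 ± 32 TPM. With metformin pretreatment 3 were higher and 11 lower (14.5% and 18.0% of all genes), none past the fold cut-off, with a median of -0.26 against -0.03 for all genes. Rescaling gave 17 higher and 3 lower with LPS, against 30.6% and 27.6% of all tested genes. It left the counts of 3 and 11 in the other comparison, against 15.6% and 17.4%.

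Transcripts known as targets of these proteins in macrophages were read from 25 genes, of which 24 were tested. Many of them are cytokine and chemokine genes known to be induced by LPS, and the list was chosen with earlier results of these data known. Their rise with LPS thus follows from the choice of genes and is not a result about the regulators. With LPS 22 were higher and 2 lower on the adjusted p (16.2% and 60.1% of all tested genes), 20 of them higher past the fold cut-off (6.08% of all tested genes passed both cut-offs in either direction), and the median log2 fold change was 5.15. Il1b had the largest change at 9.44 (from 3.47 ± 1.0 to 3074 ± 188 TPM), followed by Il12b at 8.55 and Ptgs2 at 8.22. Tnf, the best known TTP target, rose from 31.3 ± 3.2 to 3917 ± 5 TPM, and Il6, a target of Regnase-1 and Arid5a, from 0.225 ± 0.088 to 177 ± 7 TPM (SD, n = 2).

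With metformin pretreatment the same targets split. On the adjusted p 10 were higher and 6 lower (14.5% and 18.0% of all genes), and past the fold cut-off of 0.7 were 5 higher and 5 lower (8.28% of all genes passed both cut-offs). After rescaling, 11 were higher and 6 lower on the adjusted p (15.6% and 17.4% of all genes). Past both cut-offs were then 6 higher and 5 lower (8.54% of all genes passed both). Ifnb1 was higher by a log2 fold change of 2.11 ± 0.15 (SE), Plk2 by 1.83 ± 0.05 and Il23a by 1.68 ± 0.09. Of the lower ones, Il10 was at -1.25 and Ier3 at -1.04, and the others lay close to the cut-off, between -0.72 and -0.75. Tnf rose to 8069 ± 203 TPM (SD, n = 2), a log2 fold change of 1.04 ± 0.06 (SE, limma, adjusted p = 5.68e-05), Il1b fell by 0.75 on the log2 scale to 1829 ± 51 TPM (limma, adjusted p = 0.00471), and Il6 at 199 ± 13 TPM did not pass (log2 fold change 0.17, limma, adjusted p = 0.0889). Targets of the same protein are also set by transcription, and mRNA decay was not measured in these samples.

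**Figure D4:**
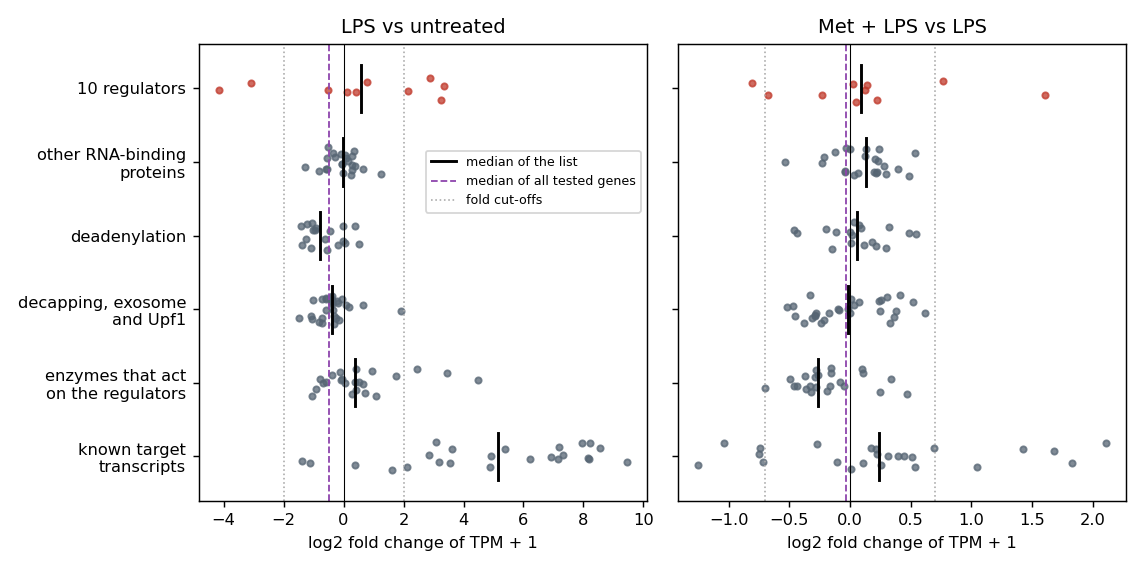
Log2 fold change of TPM + 1 of the 10 regulators and of the tested genes of 5 gene lists, 1 point per gene, for LPS against Untr (left) and Met + LPS against LPS (right). Black bars mark list medians (0.59 and 0.09 for the regulators, 5.15 and 0.24 for the known targets), the dashed line marks the median of all tested genes and dotted lines mark the fold cut-offs.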

How the data were processed

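Poly(A) RNA of 6 BMDM libraries was sequenced as single-end reads. Per the methods of the study and the submitters' processing notes, reads were aligned to GRCm38 (annotation release 94) with STAR 2.6.1d, handled with SAMtools 1.9 and counted with featureCounts of Subread 1.6.3. The table deposited by the authors holds TPM per gene and library; how TPM were computed, and whether strand was used, is not given in the sources used here. TPM sum to one total per library, so each value is relative to all other genes of that library. Multiplied by the union exon length (GENCODE vM21, matched for 54495 genes), 96.1% to 96.3% of the values above 0 came out as whole numbers of reads (within 0.02).

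Genes that reached 1 TPM in 2 or more of the 6 libraries were tested on log2(TPM + 1) with limma 3.58.1 (R 4.3.3, lmFit and eBayes with a trend), with all 6 libraries in one fit with 3 residual degrees of freedom before shrinkage, and p-values were adjusted by Benjamini-Hochberg over all tested genes. limma replaced the authors' DESeq2 because TPM are not counts, and voom was run on the recovered reads as an alternative. The labels do not say that the letters A and B pair libraries, and differences A minus B correlated between groups at -0.00365 to 0.0284 over genes, so no block was used.

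Named were the 10 members and, in each gene list and comparison, at most 3 genes with the largest change past both cut-offs, plus Tnf, Il6 and Il1b. Genes that overlap a member were named by position, and Btg2, Tob1, Dcp2, Il10 and Ier3 were named outside this rule, after their values were seen. The members and gene lists were chosen with earlier results of these data known. The comparison of Met + LPS with Untr was not set by the study. Scripts were tested on simulated data. Python 3.11.15 with pandas 2.3.3 was used for the descriptions.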

Additional observations from a re-analysis of the deposited data

How the results depend on the processing

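With LPS against Untr the regulators numbered 6 past both cut-offs and 9 on the adjusted p in every alternative (another pseudocount, other filters, rescaling, no trend, the compared groups only, voom on recovered reads, a replicate block and each library left out). With Met + LPS against LPS the count of 3 was 1 at a log2 cut-off of 1 (Zfp36l2) and 2 to 4 with a library left out. The replicate block left all of these counts as they were (6, 3 and, for Met + LPS against Untr, 5), and A and B are not known to be pairs. Rescaling by the median ratio turned Khsrp to 0.00367 in LPS against Untr and to 0.0646 in Met + LPS against Untr, because it removes the shift shared by all genes. It kept the count of 9 in LPS against Untr as 7 higher and 2 lower in place of 6 and 3, since Rc3h2 passed and Khsrp did not. Of all tested genes 58.3% passed after rescaling, with 30.6% higher and 27.6% lower. In Met + LPS against LPS the count of 5 on the adjusted p was 4 with no filter, with the compared groups only and with no trend. It was also lower than 5 in every fit that left out a library, and 7 at an adjusted p under 0.05. In Met + LPS against LPS, leaving out a library moved Khsrp between -3.34e-05 and 0.0940 and Rc3h1 between -0.0354 and 0.0832, neither of them called. Over all refits of single genes, 398 values kept their direction and their side of the adjusted p of 0.01 alone, 16 no longer passed it, 1 newly passed it and 5 changed sign. Crossings of the fold cut-offs are not in these counts, and those of Zfp36, Zc3h12c and Arid5a are given with their values in the results.

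The 776 genes past both cut-offs in LPS against Untr became 1512 with a pseudocount of 0.1, 1596 with voom and 3556 at a cut-off of 1, and the 682 of Met + LPS against Untr became 1457, 1564 and 3714. The 1056 of Met + LPS against LPS became 455 at a cut-off of 1, and its 4156 on the adjusted p became 2662 with the compared groups only and 2561 to 2759 with a library left out. With 2 libraries per group, small differences such as those of Rc3h2, Elavl1 and Zfp36l1 between Met + LPS and LPS were not resolved.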

Other observations

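The machinery that carries out decay after a regulator has bound was read from lists of its genes. Of 18 genes for deadenylation (the CCR4-NOT and PAN2-PAN3 complexes, Parn and the BTG and TOB proteins), LPS left 2 higher and 13 lower on the adjusted p from limma, against 16.2% and 60.1% of all tested genes, with none past the fold cut-off of 2 and a median log2 fold change of -0.77 against -0.48 for all tested genes. After median-ratio rescaling 6 were higher and 9 lower, against 30.6% and 27.6% of all tested genes, with a median of -0.27. Chosen after their values were seen, Btg2 at -1.40 and Tob1 at -1.40, both adaptors of the deadenylase, had the lowest values of the list. With metformin pretreatment 4 were higher and 2 lower than with LPS alone, against 14.5% and 18.0% of all genes, with a median of 0.05.

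For decapping, the exosome and Upf1, 29 of 30 listed genes were tested, and LPS left 3 higher and 19 lower (16.2% and 60.1% of all tested genes), with none past the fold cut-off of 2 on the TPM scale and a median of -0.40. The direction of this list rests on the scale, since after rescaling 9 were higher, 1 of them (Dcp2) past both cut-offs, and 4 lower, with a median of 0.09. The matching shares of all tested genes were 30.6% higher and 27.6% lower, and 6.21% passed both cut-offs. Dcp2, the catalytic decapping enzyme, chosen here after its values were seen, had the highest log2 fold change of the list with LPS, 1.902, and was at -0.52 with metformin pretreatment, the lowest of the list in that comparison. With metformin pretreatment 5 of the list were higher and 6 lower, against 14.5% and 18.0% of all genes, with a median of -0.01.

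Several regulators share exonic bases with a gene on the opposite strand. Gm44710, which shares 125 exonic bases with Zfp36, was at 1.39 to 4.80 TPM over the libraries, and Ccl25, which shares 204 exonic bases with Elavl1, was at 0.791 to 2.08 TPM. AC132455.1 shares 105 exonic bases with Zfp36l2, and its level was not analysed here. Without knowing whether strand was used in counting, reads from the shared bases cannot be assigned to one gene of a pair.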
